A study of Mus musculus with 16 samples.

Results

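Plin1, Plin2, Plin3, Plin4, Cidec, Pnpla2, Lipe, Mgll, Abhd5 and G0s2 are genes of the lipid droplet coat and of lipolysis, and were found by their symbols. The set was chosen with earlier results of these data known. All 10 were found among the 20581 genes of the deposited table, and all 10 passed the filter on low counts that left 14217 genes. The libraries came from primary smooth muscle cells of the aorta of male C57BL/6J mice, 4 libraries in each of 4 groups. KO cells in DIAM were from RBC.ARG1-KO mice, in which floxed ARG1 had been deleted by Cre recombinase driven from the erythropoietin receptor gene, and had spent 10 days in a medium meant to load them with lipid. DIAM was Dulbecco Modified Eagle Medium (DMEM) with 0.1 µM dexamethasone, 1 µM insulin and 50 µg/mL L-ascorbic acid. WT cells in DIAM were from RBC.ARG1-WT littermates and had the same medium for the same time. KO cells in DMEM and WT cells in DMEM were kept in DMEM with 10% fetal bovine serum. Whether DIAM also held serum, which alleles the WT littermates carried, and the age of the mice are not given in the sources used here. The Cre acts in the red blood cell lineage, so the cultured smooth muscle cells are not the cells meant to lose ARG1.

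Neutral lipid is stored in droplets, a core of triglyceride and sterol ester under a single phospholipid layer that is coated with proteins. Perilipins sit on that surface and control the access of lipases, and Cidec helps droplets to fuse into large ones. Lipolysis then runs in steps: Pnpla2, also called ATGL, removes the first fatty acid from triglyceride, Lipe (hormone-sensitive lipase) cleaves diglyceride, and Mgll cleaves monoglyceride. Abhd5, also called CGI-58, activates Pnpla2, and G0s2 inhibits it. Plin1, Cidec and Lipe are best known from fat cells, while Plin2 and Plin3 are found in most tissues. Dexamethasone and insulin are both standard parts of mixtures that drive precursor cells to become fat cells in culture.

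The 10 genes have 13 promoter windows in RefSeq's table for the mouse build GRCm38.p6, each 300 bases long and reaching from upstream to just past an annotated start. They are a description of the genes and not of these cells, because the reads were quantified on another build, GRCm39, and the libraries do not tell which start was used. The windows of Plin1 (chr7:79732727-79733026, minus strand), the second start of Cidec (chr6:113434715-113435014, minus strand), the second start of Lipe (chr7:25390063-25390362, minus strand) and Plin2 (chr4:86670010-86670309, minus strand) are shown 5′ to 3′. Each belongs to a gene that was higher in DIAM and holds a match to a motif of a factor family that acts on fat cell or glucocorticoid target genes. They are examples picked for their matches. The Abhd5 window and the first Mgll window also hold such a match and are not shown. Capitals mark the matches.
Plin1: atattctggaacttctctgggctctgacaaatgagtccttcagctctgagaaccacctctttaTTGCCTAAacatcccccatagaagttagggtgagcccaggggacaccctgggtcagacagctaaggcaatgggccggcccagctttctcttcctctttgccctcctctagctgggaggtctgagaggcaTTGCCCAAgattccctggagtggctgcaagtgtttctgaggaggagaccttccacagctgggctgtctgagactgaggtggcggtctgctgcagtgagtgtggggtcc
Cidec: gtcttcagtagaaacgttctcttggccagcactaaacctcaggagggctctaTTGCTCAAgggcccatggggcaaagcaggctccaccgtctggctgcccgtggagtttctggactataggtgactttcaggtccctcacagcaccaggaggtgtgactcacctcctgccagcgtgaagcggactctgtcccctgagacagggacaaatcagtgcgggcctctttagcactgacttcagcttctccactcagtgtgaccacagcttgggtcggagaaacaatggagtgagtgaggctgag
Lipe: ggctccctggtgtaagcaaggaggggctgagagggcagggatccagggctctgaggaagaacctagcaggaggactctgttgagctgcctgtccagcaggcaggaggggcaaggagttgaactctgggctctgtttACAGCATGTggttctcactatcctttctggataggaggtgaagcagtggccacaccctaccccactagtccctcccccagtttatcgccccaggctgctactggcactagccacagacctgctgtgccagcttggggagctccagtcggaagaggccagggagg
Plin2: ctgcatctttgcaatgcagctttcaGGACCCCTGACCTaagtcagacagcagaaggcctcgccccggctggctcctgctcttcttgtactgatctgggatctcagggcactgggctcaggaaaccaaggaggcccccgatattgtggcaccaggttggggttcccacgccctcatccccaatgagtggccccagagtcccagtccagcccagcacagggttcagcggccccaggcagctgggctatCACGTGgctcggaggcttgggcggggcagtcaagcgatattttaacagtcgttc

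Positions are counted from the annotated start, which is 0, with negative numbers upstream. The C/EBP motif TTGCNNAA matched at -187 and at -58 in Plin1 and at -198 in the second Cidec window, and it was present in 10.8% of all 32851 promoter windows of the table. The core of the glucocorticoid receptor motif, ACANNNTGT, matched at -114 in the second Lipe window and in 6.85% of all windows. A nuclear receptor DR1, which is a pair of AGGTCA elements with 1 base between them and at most 2 mismatches in all, began at -225 in Plin2 and was found in 3.86% of all windows. The single element AGGTCA matched in Plin2, inside that DR1, and in Abhd5, and in 16.3% of all windows. The E-box CACGTG was found in Plin2, in the first Lipe window and in the first Mgll window, against 7.15% of all windows. The single glucocorticoid receptor element AGAACA matched in the first Mgll window, against 19.0% of all windows, and TATAAA matched in none of the 13, against 13.6%. Of the 13 windows, 2 held the C/EBP motif, 1 the glucocorticoid receptor core, 1 the DR1 and 3 the E-box. Both strands were searched, and a match is not evidence that a factor binds there.

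The windows also differed in how many CpG dinucleotides they hold. Plin1 held 2, Plin2 held 10, Plin3 held 9, Plin4 held 7 and the Cidec windows held 6 and 7, against a median of 7 over all windows of the table. Pnpla2 held 18, the Lipe windows 19 and 2, the Mgll windows 32 and 42, Abhd5 32 and G0s2 13.

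Values are given as TMM-scaled CPM, the count of a gene scaled to the library's total, which is a level within each library that is not corrected for gene length. Differences between groups are log2 fold changes with their standard error (SE), from the quasi-likelihood test of edgeR, with Benjamini-Hochberg adjusted p-values over the 14217 genes, and a gene was called at an adjusted p under 0.05. Total counts were between 37221192 and 47626331 per library. In bulk RNA, fewer cells of a type and less RNA per cell cannot be told apart. Arg1 itself was listed at 0 to 1.22 CPM in the 16 libraries, at most 49 counts, which does not check the genotype labels because the deletion is in another lineage. Smooth muscle markers were present in every library, with a summed level over 10 genes of 2150 to 3380 CPM in KO cells in DIAM, 2070 to 2910 CPM in WT cells in DIAM, 4220 to 6420 CPM in KO cells in DMEM and 5110 to 6190 CPM in WT cells in DMEM. Cald1 had the highest mean CPM of those genes, 1660 over all libraries and uncorrected for length, Acta2 had 522 to 2320 CPM, and Myocd, a cofactor that drives the contractile program, was low, with group means of 2.49 to 11.6 CPM. In both genotypes, 5 of the 10 smooth muscle markers were called lower in DIAM. Myocd was called higher in DIAM, with log2 fold changes of 2.22 in KO cells and 1.36 in WT cells. Lmod1 was called higher in KO cells only, at 0.54, and Myh11 was not called between the media. The 9 fibroblast markers, many of which smooth muscle also expresses, summed to 12400 to 22600 CPM. Of the 7 erythroid markers, 2 were analysed here, and their sum did not pass 8.08 CPM in any library.

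One library stood apart. WT library 2 in DIAM lay lowest of all on the second principal component, which held 6.72% of the variance, at -43.19 against -22.32 to 38.23 for the other DIAM libraries. That library had the lowest level of 9 of the 10 genes among the WT libraries in DIAM and the highest level of the remaining one, Plin3. It also had the lowest summed adipocyte markers (1600 CPM, against 2260 to 2580 CPM in the other WT libraries in DIAM) and the highest summed Schwann cell markers (288 CPM, against 132 to 202 CPM). At the other end of the second component lay KO library 1 in DIAM, at 38.23 against 6.903 to 19.91 for the other KO libraries in DIAM. That KO library was the highest of its group for 5 of the 10 genes. Values without WT library 2 in DIAM are given beside the results that library moves most.

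Between the media, 9 of the 10 genes were called higher in DIAM in KO cells and all 10 in WT cells. The calls of Plin3 and Mgll in WT cells sat near the threshold (edgeR adjusted p = 0.0424 and 0.0486). They were kept in 10 and 3 of the 16 fits without 1 library. Cidec passed the filter only through its DIAM libraries. Cidec changed most, by 9.10 ± 0.387 on the log2 scale in KO cells and 8.18 ± 0.374 in WT cells (log2 fold change ± SE, 4 libraries per group), and Plin1, Lipe, Pnpla2 and Plin4 followed with log2 fold changes between 3.33 and 5.74. Abhd5 and Plin2 were 2.07 to 3.10 times as high, G0s2 was 2.54 times as high in KO cells and 1.49 times in WT cells, and Mgll 1.85 and 1.35 times in the same order. Plin3 had the smallest difference between the media. Over all genes, 29.8% were called higher and 30.8% lower in DIAM in KO cells, and 27.6% higher and 27.5% lower in WT cells. Their median log2 fold change was 2.60 in KO cells and 2.32 in WT cells, beside medians of -0.02 and -0.01 over all genes tested. Every DIAM library lay above every DMEM library for 9 of the 10 genes in KO cells, all but Plin3, and for 7 in WT cells, against 27.3% and 24.3% of all genes tested.

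**Figure D1:**
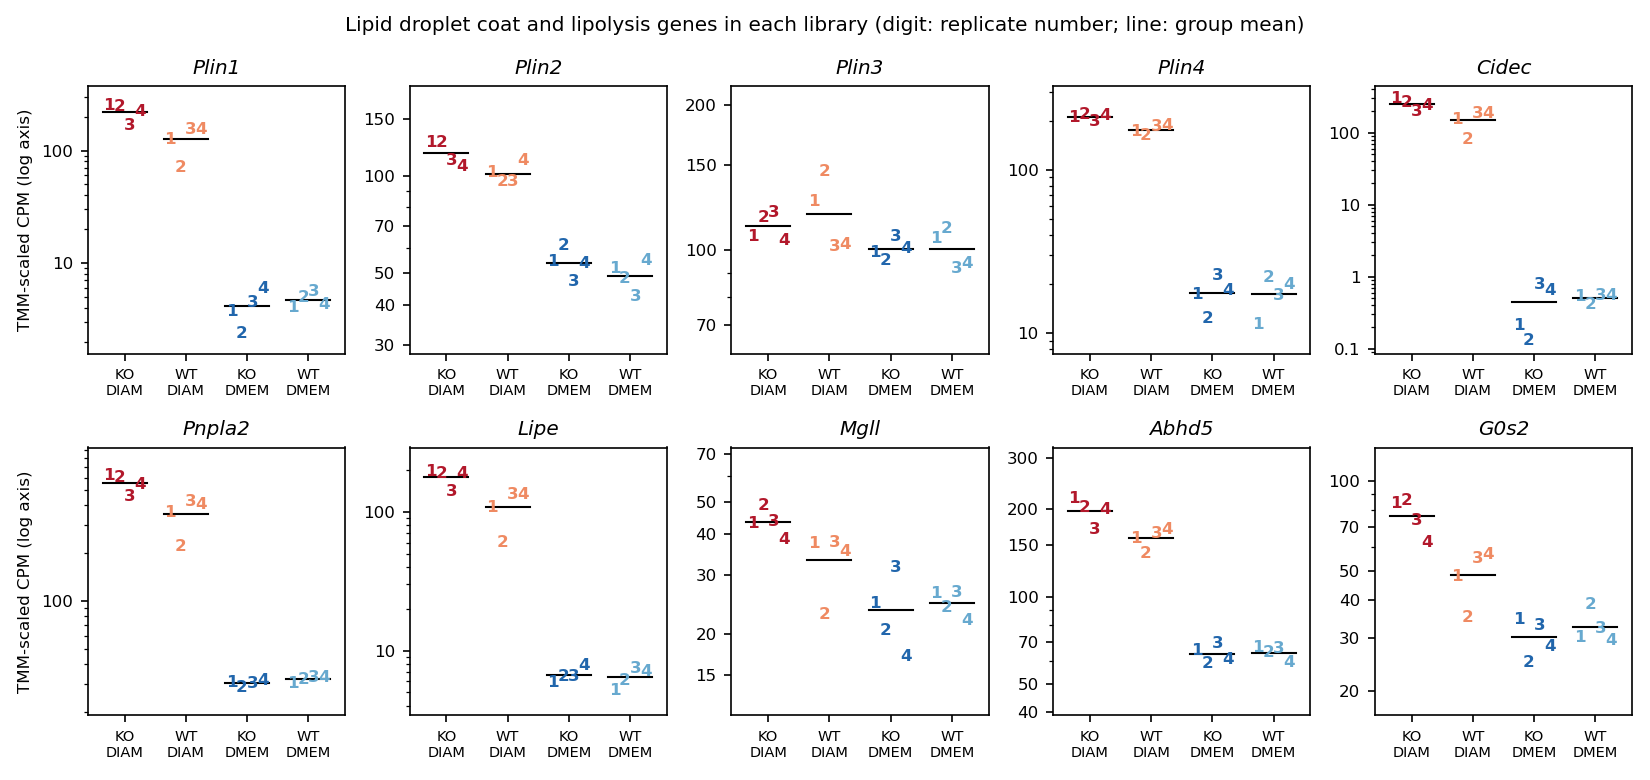
TMM-scaled CPM of each gene on a log axis of its own, by group (KO in DIAM, WT in DIAM, KO in DMEM, WT in DMEM). Each digit is one library and its replicate number, and the line is the group mean. For 7 genes, all DIAM libraries of both genotypes lie above all DMEM libraries, and WT library 2 in DIAM is the lowest of its group in every panel except Plin3.

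Plin1 coats the droplets of fat cells and holds Abhd5 away from Pnpla2 until hormone signals release it. Its level in libraries 1 to 4 was 250, 244, 168 and 224 CPM in KO cells in DIAM, 126, 70.6, 155 and 154 CPM in WT cells in DIAM, 3.72, 2.35, 4.49 and 5.94 CPM in KO cells in DMEM, and 4.01, 4.91, 5.63 and 4.28 CPM in WT cells in DMEM. Every DIAM library was far above every DMEM library, and every KO library in DIAM was above every WT library in DIAM. The log2 fold change between the media was 5.74 ± 0.302 in KO cells (adjusted p = 5.79e-10) and 4.74 ± 0.289 in WT cells (adjusted p = 3.52e-09).

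Cidec, also called FSP27 in mice, gathers at droplet contacts and lets lipid pass from one droplet to another. KO cells in DIAM had 295, 265, 193 and 237 CPM in libraries 1 to 4, and WT cells in DIAM had 153, 78.9, 183 and 183 CPM. Levels in DMEM were 0.21, 0.129, 0.781 and 0.647 CPM in KO cells and 0.532, 0.413, 0.55 and 0.544 CPM in WT cells. All of these were under the 1 CPM of the filter, so Cidec was tested only because of its DIAM libraries. Cidec was close to undetected in DMEM, with 5 to 32 counts per library, against 3329 to 11406 counts in DIAM, so the size of its fold change carries the counting error of those low values. The change between the media passed the test in KO cells (adjusted p = 6.48e-11) and in WT cells (adjusted p = 1.66e-10). The SE was 0.387 and 0.374, wider than for the genes with more counts in DMEM.

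Plin4 is a perilipin with a long repeated helix that binds small nascent droplets. Its level was 208, 217, 198 and 214 CPM in KO cells in DIAM and 172, 162, 183 and 187 CPM in WT cells in DIAM. In DMEM it was 17.4, 12.3, 22.5 and 18.3 CPM in KO cells and 11.3, 22, 17 and 19.8 CPM in WT cells. The 4 KO and 4 WT libraries in DIAM were tight, with coefficients of variation of 4.14% and 6.3%, the narrowest of the strongly raised genes. DIAM raised it by 3.57 ± 0.187 in KO cells (adjusted p = 3.67e-10) and by 3.33 ± 0.185 in WT cells (adjusted p = 8.61e-10), both as log2 fold changes.

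Plin2 is the perilipin of most cells that are not fat cells, among them lipid-laden foam cells. KO cells in DIAM had 127, 127, 112 and 107 CPM and WT cells in DIAM had 103, 96, 96.6 and 112 CPM. KO cells in DMEM had 54.3, 60.8, 47 and 53.5 CPM and WT cells in DMEM had 51.6, 48.1, 42.3 and 54.6 CPM. The media did not overlap in either genotype, and the change was far smaller than for Plin1, with log2 fold changes of 1.13 ± 0.0904 in KO cells (adjusted p = 2.3e-08) and 1.05 ± 0.0904 in WT cells (adjusted p = 6.77e-08). In KO cells in DIAM the count ratio of Plin1 to Plin2 was 1.51 to 2.09, against 0.736 to 1.6 in WT cells in DIAM. In DMEM the same ratio was 0.0387 to 0.111 in KO cells and 0.0776 to 0.133 in WT cells.

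Plin3 is a perilipin that moves between the cytosol and droplets. Its level was 107, 117, 120 and 105 CPM in KO cells in DIAM, 126, 146, 102 and 103 CPM in WT cells in DIAM, 98.9, 95.5, 107 and 101 CPM in KO cells in DMEM, and 106, 111, 91.8 and 94 CPM in WT cells in DMEM. All 4 groups overlapped in part, and the highest value was that of WT library 2 in DIAM. The log2 fold change between the media was 0.16 ± 0.098 in KO cells (adjusted p = 0.171) and 0.25 ± 0.098 in WT cells (adjusted p = 0.0424). Without WT library 2 in DIAM the value in WT cells was 0.14 and the adjusted p was 0.18, the highest of the 16 fits that leave out 1 library each, 10 of which called it. The authors' deposited table gives an adjusted p of 0.102 for the same comparison.

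Pnpla2 is the lipase of the first step, and its activity sets the pace of lipolysis in fat cells. KO cells in DIAM had 619, 601, 454 and 544 CPM and WT cells in DIAM had 363, 222, 422 and 404 CPM. KO cells in DMEM had 30.6, 28.6, 30.2 and 31.7 CPM and WT cells in DMEM had 30.1, 32, 33.1 and 32.8 CPM. The DMEM libraries lay within a narrow range while the DIAM libraries spread, with a coefficient of variation of 25.7% in WT cells. DIAM raised Pnpla2 by 4.2 ± 0.17 in KO cells (adjusted p = 2.08e-11) and by 3.46 ± 0.165 in WT cells (adjusted p = 1.38e-10), as log2 fold changes.

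Lipe, the diglyceride lipase that hormone signals activate, had 194, 189, 141 and 189 CPM in KO cells in DIAM and 107, 60.4, 134 and 134 CPM in WT cells in DIAM. Its level was 5.87, 6.46, 6.54 and 7.78 CPM in KO cells in DMEM and 5.14, 6.07, 7.37 and 7.05 CPM in WT cells in DMEM. The media were far apart and the genotypes in DIAM did not overlap, with WT libraries 3 and 4 closest to KO library 3. The log2 fold change between the media was 4.74 ± 0.237 in KO cells (adjusted p = 2.96e-10) and 4.09 ± 0.232 in WT cells (adjusted p = 1.37e-09). The libraries are unstranded, and in GENCODE's annotation 15.6% of the exon bases of Lipe are shared with the antisense gene 4732471J01Rik, whose own group means were 0.544 to 0.803 CPM.

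Mgll, which finishes lipolysis and also breaks down an endocannabinoid, had the smallest change between the media after Plin3. Its level was 43.2, 48.8, 43.6 and 38.5 CPM in KO cells in DIAM, 37.4, 22.9, 37.8 and 35.4 CPM in WT cells in DIAM, 24.7, 20.5, 31.8 and 17 CPM in KO cells in DMEM, and 26.4, 24, 26.7 and 21.9 CPM in WT cells in DMEM. In WT cells the media overlapped, through WT library 2 in DIAM, and in KO cells they did not. The log2 fold change was 0.89 ± 0.175 in KO cells (adjusted p = 0.000429) and 0.43 ± 0.175 in WT cells (adjusted p = 0.0486). The call in WT cells sat at the threshold, and 3 of the 16 fits without 1 library kept it. The value in WT cells was 0.58, with an adjusted p of 0.00517, without WT library 2 in DIAM.

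Abhd5, the activator of Pnpla2, had 217, 202, 170 and 199 CPM in KO cells in DIAM and 159, 141, 165 and 170 CPM in WT cells in DIAM. In DMEM, KO cells had 65.4, 58.8, 68.8 and 60.8 CPM and WT cells had 67.1, 64.3, 66.1 and 59.3 CPM. DIAM raised it by 1.63 ± 0.0786 in KO cells (adjusted p = 6.82e-11) and by 1.31 ± 0.078 in WT cells (adjusted p = 9.33e-10), as log2 fold changes with the smallest SE of the 10 genes. In GENCODE's annotation 16% of its exon bases are shared with the antisense gene A730085K08Rik, whose reads these libraries cannot separate from those of Abhd5.

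G0s2, the inhibitor of Pnpla2, had 84.2, 85.9, 73.6 and 62.3 CPM in KO cells in DIAM and 47.8, 35, 55.1 and 56.7 CPM in WT cells in DIAM. In DMEM it had 34.6, 24.9, 32.9 and 28.1 CPM in KO cells and 30.1, 38.8, 32.3 and 29.3 CPM in WT cells. KO libraries in DIAM stood above all others, whereas WT library 2 in DIAM fell within the range of the DMEM libraries. The log2 fold change between the media was 1.34 ± 0.154 in KO cells (adjusted p = 1.85e-06) and 0.58 ± 0.152 in WT cells (adjusted p = 0.00456). Leaving out WT library 2 in DIAM gave 0.71 in WT cells (adjusted p = 0.000356).

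**Figure D2:**
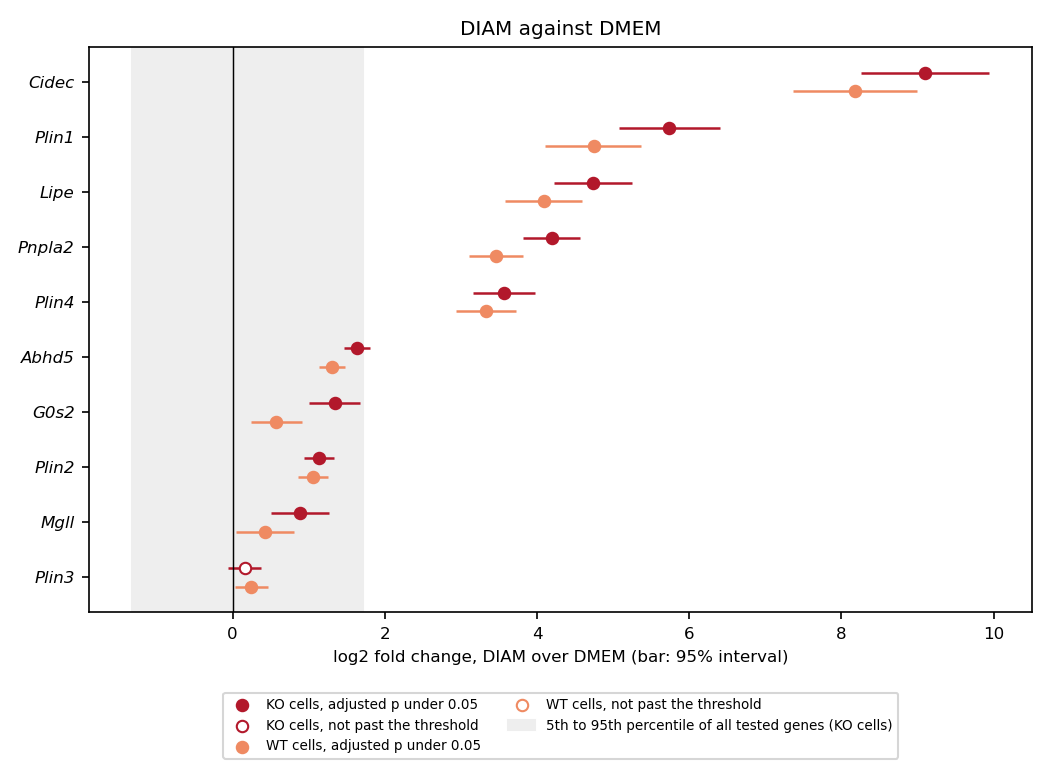
Log2 fold change of each gene, DIAM over DMEM, in KO cells and in WT cells. Points are estimates, bars 95% intervals, filled points passed the adjusted p threshold, and the grey band holds the middle of all tested genes in KO cells, between their 5th and 95th percentiles (-1.32 and 1.71). Cidec, Plin1, Lipe, Pnpla2 and Plin4 lie right of the band in both genotypes, and Plin3 lies near 0.

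The lipase and its partners did not move in step. The count ratio of Pnpla2 to its inhibitor G0s2 was 6.18 to 8.74 in KO cells in DIAM and 6.33 to 7.65 in WT cells in DIAM, against 0.886 to 1.15 in KO cells in DMEM and 0.824 to 1.12 in WT cells in DMEM. Genotypes overlapped in both media, and the media did not. The count ratio of Pnpla2 to its activator Abhd5 was 2.68 to 2.97 in KO cells in DIAM and 1.57 to 2.56 in WT cells in DIAM, so the genotypes did not overlap there. In DMEM that ratio was 0.439 to 0.521 in KO cells and 0.448 to 0.554 in WT cells. Cidec and Plin1 kept nearly the same ratio in DIAM, 1.06 to 1.18 in KO cells and 1.12 to 1.22 in WT cells. These ratios are descriptions per library, without correction for length and without a test.

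To compare levels between genes, CPM was divided by the length of the longest coding transcript of each gene in GENCODE's annotation of build GRCm38. In DIAM, Pnpla2 ranked first at 211.0 CPM per kb in KO cells and 134.0 in WT cells, Cidec second at 144.0 and 87.2, and G0s2 came after it at 87.8 and 55.9. Mgll ranked last at 10.9 CPM per kb in KO cells and 8.34 in WT cells. In DMEM the order was another one: G0s2 was first at 34.6 CPM per kb in KO cells and 37.4 in WT cells, Plin2 and Plin3 came next at 26.1 to 28.5, and Cidec was last at 0.257 in KO cells and 0.297 in WT cells. With the union of all exons as the length, the first 3 in DIAM and the last gene in each medium were the same and the middle ranks changed.

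In DMEM, none of the 10 genes passed the test between KO and WT cells. All had an adjusted p of 1, the groups overlapped for every gene, and log2 fold changes, KO over WT, were between -0.19 ± 0.593 for Cidec and 0.13 ± 0.09 for Plin2. By edgeR 0% of all genes were called in this comparison, with 438 genes at an unadjusted p under 0.05, and none of the 10 was called by DESeq2, which called 1 gene, or in the authors' deposited table, which has 2 calls. The 95% interval of the log2 fold change was -0.42 to 0.26 for Pnpla2, -0.19 to 0.15 for Abhd5 and -1.48 to 1.10 for Cidec, so the data bound a difference of Abhd5 far more closely than one of Cidec.

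In DIAM, 5 of the 10 genes were higher in KO than in WT cells. These were Plin1 (log2 fold change 0.81 ± 0.238, adjusted p = 0.0494), Lipe (0.71 ± 0.198, adjusted p = 0.0415), Pnpla2 (0.65 ± 0.149, adjusted p = 0.0198), G0s2 (0.65 ± 0.151, adjusted p = 0.0209) and Abhd5 (0.31 ± 0.0764, adjusted p = 0.0249). None was lower. Over all genes tested, 3.43% were called higher in KO cells and 4.95% lower. The median log2 fold change was 0.52 over the 10 genes and 0.00 over all genes tested.

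The 5 other genes did not pass the test. Cidec had a log2 fold change of 0.73 ± 0.238 (adjusted p = 0.0719), as large as that of the called genes, and no KO library in DIAM was as low as a WT library. Mgll had 0.39 ± 0.173 (adjusted p = 0.177), Plin4 0.25 ± 0.167 (adjusted p = 0.378) and Plin2 0.21 ± 0.089 (adjusted p = 0.144). Plin3 was the one gene with a negative value, -0.09 ± 0.0979 (adjusted p = 0.614). Every KO library lay above every WT library for 7 genes, Plin1, Plin4, Cidec, Pnpla2, Lipe, Mgll and G0s2, against 7.38% of all genes tested. Abhd5 passed the test although KO library 3, at 170 CPM, overlapped the WT libraries.

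**Figure D3:**
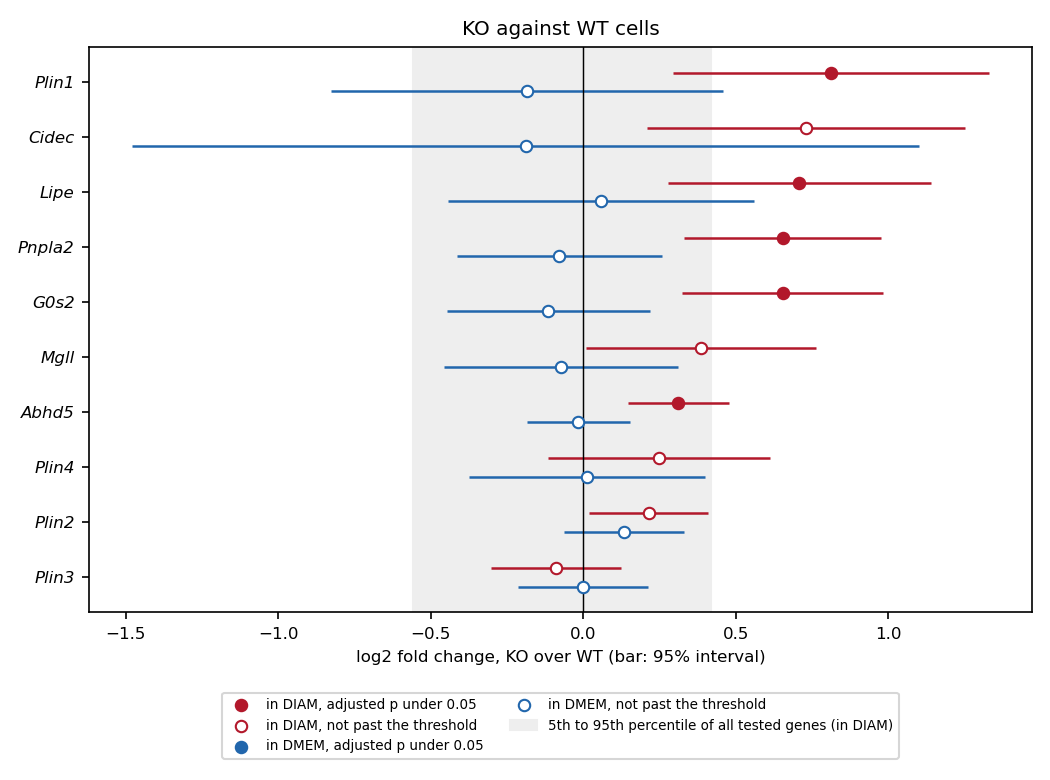
Log2 fold change of each gene, KO over WT, in DIAM and in DMEM. Points are estimates, bars 95% intervals, filled points passed the adjusted p threshold, and the grey band spans the 5th to 95th percentiles of all tested genes in DIAM (-0.56 and 0.42). In DIAM 9 of the 10 estimates are above 0 and 5 passed the test. In DMEM all intervals include 0.

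The calls between genotypes in DIAM rested on few libraries. No member was called without KO library 1, KO library 2 or WT library 1 in DIAM. Calls over all genes also fell: 88, 43 and 88 genes were higher in KO cells in these fits, against 487 with all libraries. Without WT library 2 in DIAM that number was 123. Without WT library 2 in DIAM, Pnpla2 (log2 fold change 0.49, adjusted p = 0.0247) and Lipe (0.51, adjusted p = 0.0498) were called and the other 3 were not (Plin1 0.62, adjusted p = 0.115; Abhd5 0.26, adjusted p = 0.0804; G0s2 0.53, adjusted p = 0.0541). Without KO library 4 in DIAM, Pnpla2, Abhd5 and G0s2 were called, beside 394 of all genes higher in KO cells. Without WT library 2 or WT library 4 in DMEM, 3 members were called, beside 439 and 397 of all genes higher in KO cells. Over all 16 fits without 1 library, Pnpla2 was called in 13, Abhd5 and G0s2 in 12 each, Lipe in 10 and Plin1 in 5. The log2 fold change stayed above 0 in all 16 for each of these genes and was lowest at 0.62 for Plin1, 0.51 for Lipe, 0.49 for Pnpla2, 0.53 for G0s2 and 0.26 for Abhd5. A fit of the KO and WT libraries in DIAM alone called none of the 10 genes, with adjusted p-values of 0.0696 to 0.113 for the same 5, and 0 of all genes tested.

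Cell type markers were also set side by side for the genotypes in DIAM. Among the sums that follow, only that of the Schwann cell markers did not overlap between KO and WT cells in DIAM. The summed adipocyte markers, 8 of 11 analysed here, were 2480 to 3660 CPM in KO cells in DIAM and 1600 to 2580 CPM in WT cells in DIAM, against 58.8 to 101 CPM in KO cells in DMEM and 75.7 to 94.8 CPM in WT cells in DMEM. Fabp4 had the highest CPM of them, uncorrected for length, at 1330 to 2000 CPM in KO cells in DIAM and 1040 to 1500 CPM in WT cells in DIAM. Of the 8, all were higher in DIAM than in DMEM in both genotypes, and 3 (Thrsp, Car3 and Adrb3) were higher in KO than in WT cells in DIAM. Of all genes tested, 29.8% were called higher in DIAM in KO cells and 27.6% in WT cells. Between genotypes in DIAM, 3.43% were called higher in KO cells. Schwann cell markers summed to 36.8 to 96.1 CPM in KO cells in DIAM and 132 to 288 CPM in WT cells in DIAM, without overlap. None of the 6 Schwann markers past the filter passed the test between genotypes in DIAM. Mesothelial markers summed to 177 to 582 CPM in KO cells in DIAM and 104 to 272 CPM in WT cells in DIAM. Macrophage or leukocyte markers summed to 1050 to 1380 CPM in KO cells in DIAM and 835 to 1480 CPM in WT cells in DIAM, and endothelial markers summed to 74.5 to 119 CPM in KO cells in DIAM and 87.3 to 121 CPM in WT cells in DIAM. The fibroblast sum was 19500 to 22600 CPM in KO cells in DIAM and 19500 to 20900 CPM in WT cells in DIAM, while 2 of its genes were called in opposite directions. Col1a1, a chain of type I collagen, averaged 2310 ± 696 CPM in KO cells in DIAM and 4470 ± 1070 CPM in WT cells in DIAM (SD, n = 4 each), a log2 fold change of -0.95 by edgeR (adjusted p = 0.015). Gsn, the actin-severing protein gelsolin, averaged 15300 ± 1180 CPM in KO cells in DIAM and 11000 ± 2020 CPM in WT cells in DIAM (log2 fold change 0.47, edgeR adjusted p = 0.017). The endothelial gene Emcn averaged 28.2 ± 4.93 CPM in KO cells in DIAM and 41.1 ± 4.15 CPM in WT cells in DIAM (log2 fold change -0.54, edgeR adjusted p = 0.0486). Of the genes encoded in mitochondria, mt-Nd2 was called, with a log2 fold change of 0.22 (adjusted p = 0.0471). The part of these cell types in the levels of the 10 genes was not tested.

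**Figure D4:**
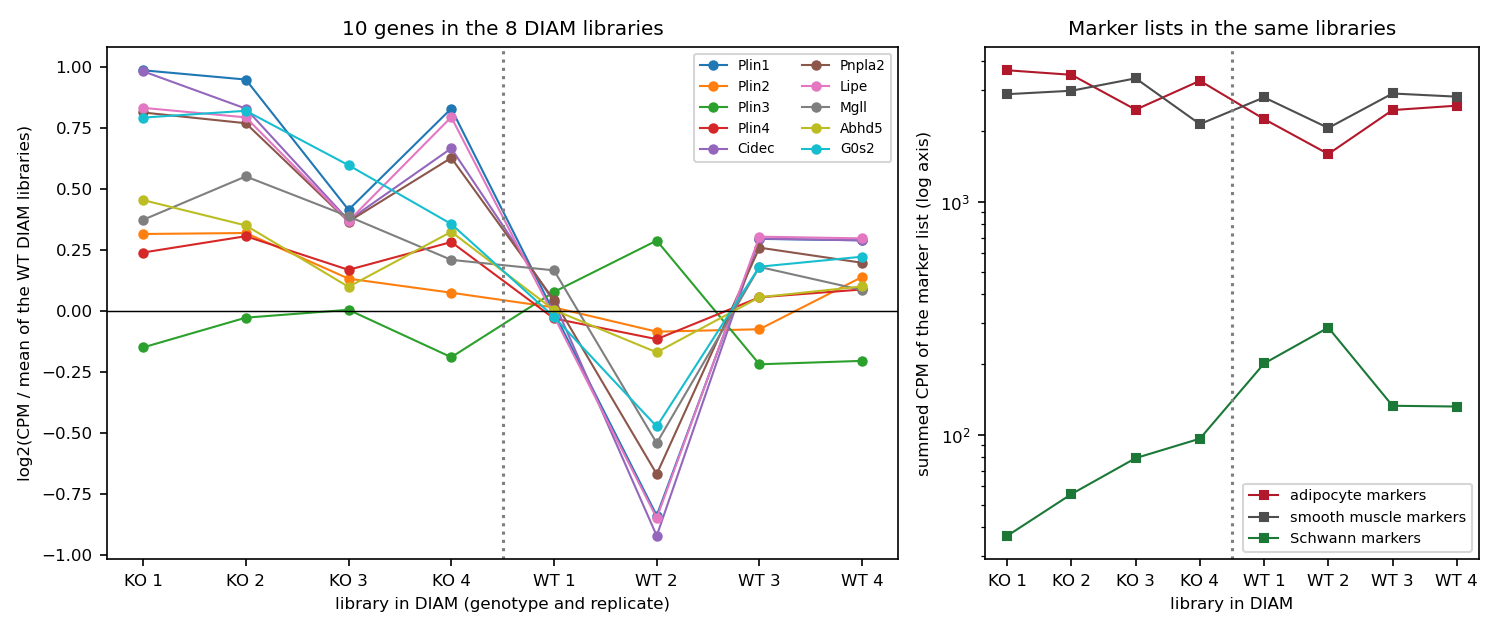
The 8 DIAM libraries, KO left of WT. On the left, log2 of each gene's CPM over the mean of the WT libraries in DIAM, with WT library 2 at -0.92 for Cidec and -0.85 for Lipe and KO library 1 at 0.98 for Cidec. On the right, summed CPM of 3 marker lists on a log axis, with the adipocyte sum lowest and the Schwann sum highest in WT library 2.

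Among KO libraries in DIAM, library 3 was the lowest for Plin1, Plin4, Cidec, Pnpla2, Lipe and Abhd5, and library 4 for Plin2, Plin3, Mgll and G0s2. The same KO library 3 had the lowest adipocyte sum of its group, 2480 CPM, and the highest smooth muscle sum, 3380 CPM. Among WT libraries in DIAM, Cidec, Lipe and Plin1 spread most, with coefficients of variation of 32.9%, 31.9% and 31.3%, and Plin4 spread least at 6.3%. Over the 3 libraries other than WT library 2 these were 9.93% for Cidec, 12.4% for Lipe, 11.5% for Plin1 and 4.23% for Plin4.

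No member passed the test of the interaction, which asks whether the change between the media differs between KO and WT cells. Values are the change in KO cells minus that in WT cells on the log2 scale. They were 1.00 ± 0.378 for Plin1 (adjusted p = 0.241), 0.77 ± 0.214 for G0s2 (adjusted p = 0.179), 0.73 ± 0.214 for Pnpla2 (adjusted p = 0.179) and 0.33 ± 0.109 for Abhd5 (adjusted p = 0.198). Lipe had 0.65 ± 0.303 (adjusted p = 0.313), Cidec 0.92 ± 0.641 (adjusted p = 0.504) and Mgll 0.46 ± 0.247 (adjusted p = 0.377). Plin2, Plin3 and Plin4 were between -0.09 and 0.24. Without WT library 2 in DIAM the values were 0.80 for Plin1 (adjusted p = 0.36), 0.64 for G0s2 (adjusted p = 0.257), 0.56 for Pnpla2 (adjusted p = 0.207), 0.45 for Lipe, 0.70 for Cidec, 0.32 for Mgll and 0.28 for Abhd5. By edgeR 0% of all genes were called, with 2255 genes at an unadjusted p under 0.05. DESeq2 called Pnpla2 (adjusted p = 0.0439) and G0s2 (adjusted p = 0.0396), among 225 genes in all. The authors' deposited table called the same 2 members, among 234 genes in all. A difference between the media in the genotype effect was thus not shown by edgeR. The genotype comparison in DIAM and both media comparisons share the DIAM libraries.

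Of 20 other droplet coat and droplet formation genes, 16 were analysed here and 15 passed the filter. In DIAM against DMEM, 8 were higher and 2 lower in KO cells, and 8 were higher and 4 lower in WT cells, with median log2 fold changes of 0.39 and 0.20. Over all genes tested, 29.8% were called higher and 30.8% lower in KO cells, and 27.6% higher and 27.5% lower in WT cells. Between genotypes in DIAM, 3.43% of all genes were called higher in KO cells and 4.95% lower. The same shares stand beside the counts of the lists that follow. Bscl2, which encodes seipin of the sites where droplets form, averaged 129 ± 6.88 CPM in KO cells in DIAM and 110 ± 9.09 CPM in WT cells in DIAM, against 54.7 ± 3.27 CPM in KO cells in DMEM and 54.7 ± 2.65 CPM in WT cells in DMEM (SD, n = 4 each). Fitm2, an endoplasmic reticulum protein needed for droplet budding, averaged 76.8 ± 8.51 CPM in KO cells in DIAM and 53.5 ± 10.7 CPM in WT cells in DIAM, against 17.5 ± 0.858 CPM in KO cells in DMEM and 18.7 ± 1.38 CPM in WT cells in DMEM. Both were higher in KO than in WT cells in DIAM, by 0.23 for Bscl2 (adjusted p = 0.0357) and 0.52 for Fitm2 (adjusted p = 0.0191) on the log2 scale. Acsl3, a fatty acyl-CoA ligase of nascent droplets, went the other way. It was lower in DIAM in both genotypes, with log2 fold changes of -1.59 in KO cells and -1.19 in WT cells, and lower in KO than in WT cells in DIAM (-0.38, adjusted p = 0.0144). Hsd17b11, a droplet enzyme, had log2 fold changes between the media of 0.51 in KO cells and 0.38 in WT cells and did not pass the test between genotypes in DIAM (adjusted p = 0.0902).

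Of 13 other neutral lipases, 9 were analysed here and 8 passed the filter. DIAM raised 5 and lowered 2 in KO cells, and raised 6 and lowered 2 in WT cells, with median log2 fold changes of 0.57 and 0.47. Lpl, which releases fatty acids from lipoproteins outside the cell, had the highest CPM of the list, uncorrected for length, at 1930 ± 248 CPM in KO cells in DIAM and 1270 ± 347 CPM in WT cells in DIAM, against 225 ± 49.7 CPM in KO cells in DMEM and 242 ± 45 CPM in WT cells in DMEM (SD, n = 4 each). Pnpla3, a droplet protein related to Pnpla2, averaged 8.8 CPM in KO cells in DIAM and 4.89 CPM in WT cells in DIAM, against 0.1 CPM in KO cells in DMEM and 0.138 CPM in WT cells in DMEM. Ces1d, a carboxylesterase that hydrolyses triglyceride, averaged 12.3 CPM in KO cells in DIAM and 6.28 CPM in WT cells in DIAM and was the one gene of this list called higher in KO cells in DIAM (log2 fold change 0.98, adjusted p = 0.0471). Ces1d belongs to a cluster of closely related genes, so its counts are uncertain. Ddhd2, a triglyceride hydrolase best known from neurons, was higher in DIAM by 0.46 in KO cells and 0.30 in WT cells on the log2 scale.

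Receptors, enzymes and channels that control lipolysis made up a list of 24, of which 23 passed the filter. In DIAM 15 were higher and 4 lower in KO cells, and 12 were higher and 5 lower in WT cells, with median log2 fold changes of 0.26 and 0.30. Adrb3, the beta adrenergic receptor of fat cells, averaged 43.8 ± 5.91 CPM in KO cells in DIAM and 29 ± 6.62 CPM in WT cells in DIAM, against 2.76 ± 0.297 CPM in KO cells in DMEM and 2.96 ± 0.366 CPM in WT cells in DMEM (SD, n = 4 each). Adora1, an adenosine receptor that inhibits lipolysis, averaged 29.3 CPM in KO cells in DIAM and 20.6 CPM in WT cells in DIAM and was near 0 in DMEM, at 0.0635 CPM in KO cells and 0.141 CPM in WT cells. Pde3b, the phosphodiesterase through which insulin restrains lipolysis, averaged 66 CPM in KO cells in DIAM and 45.6 CPM in WT cells in DIAM, against 9.56 CPM in KO cells in DMEM and 11 CPM in WT cells in DMEM. Prkar2b, a regulatory subunit of protein kinase A, was higher in DIAM by 2.05 in KO cells and 1.67 in WT cells on the log2 scale.

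Adrb3 is also in the adipocyte marker list. Over all genes tested, 3.43% were called higher and 4.95% lower in KO than in WT cells in DIAM. Of the 23 control genes past the filter, 4 were higher and 1 lower. The higher ones were Adrb3 (log2 fold change 0.60, adjusted p = 0.025), Pde3b (0.54, adjusted p = 0.0239), the insulin receptor Insr (0.41, adjusted p = 0.0156) and Prkaca, a catalytic subunit of protein kinase A (0.24, adjusted p = 0.0156). Both genes that promote lipolysis and genes that restrain it were among them. Adra2a, an adrenergic receptor that inhibits lipolysis, was lower, at 8.46 ± 2.56 CPM in KO cells in DIAM against 19.4 ± 5.77 CPM in WT cells in DIAM (log2 fold change -1.20, adjusted p = 0.012). In DMEM it averaged 9.71 CPM in KO cells and 10.2 CPM in WT cells.

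Of 13 transcription factors known to act on droplet and lipase genes, 11 were higher and 1 lower in DIAM in either genotype, with median log2 fold changes of 1.01 in KO cells and 0.73 in WT cells. Pparg, the main regulator of fat cell genes, averaged 75.8 ± 10.2 CPM in KO cells in DIAM and 53 ± 12.5 CPM in WT cells in DIAM, against 13.3 ± 2.12 CPM in KO cells in DMEM and 14.5 ± 2.4 CPM in WT cells in DMEM (SD, n = 4 each). Cebpa, a C/EBP factor of mature fat cells, averaged 359 CPM in KO cells in DIAM and 245 CPM in WT cells in DIAM, against 63.1 CPM in KO cells in DMEM and 72 CPM in WT cells in DMEM. Nr1h3, the oxysterol receptor LXR alpha, and Mlxipl, the carbohydrate response factor ChREBP, had log2 fold changes between the media of 2.14 and 5.84 in KO cells and 2.07 and 5.18 in WT cells. Only Rxra, the partner of many nuclear receptors, was called between genotypes in DIAM, with a log2 fold change of 0.27 (adjusted p = 0.0367). Nr3c1, the glucocorticoid receptor, was the gene that was lower in DIAM, and it was chosen for mention because of that value. Without KO library 1, KO library 2 or WT library 1 in DIAM, the genotype calls in these 4 lists dropped to 1 of the droplet genes, 0 of the lipases, 2 of the control genes and 0 of the transcription factors. Without WT library 2 in DIAM they were 2, 0, 5 and 0 in the same order. Calls over all 14217 genes dropped as well. In the fits without KO library 1, KO library 2 or WT library 1, 43 to 88 were higher in KO cells and 135 to 211 lower. Without WT library 2 in DIAM, 123 were higher and 193 lower.

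**Figure D5:**
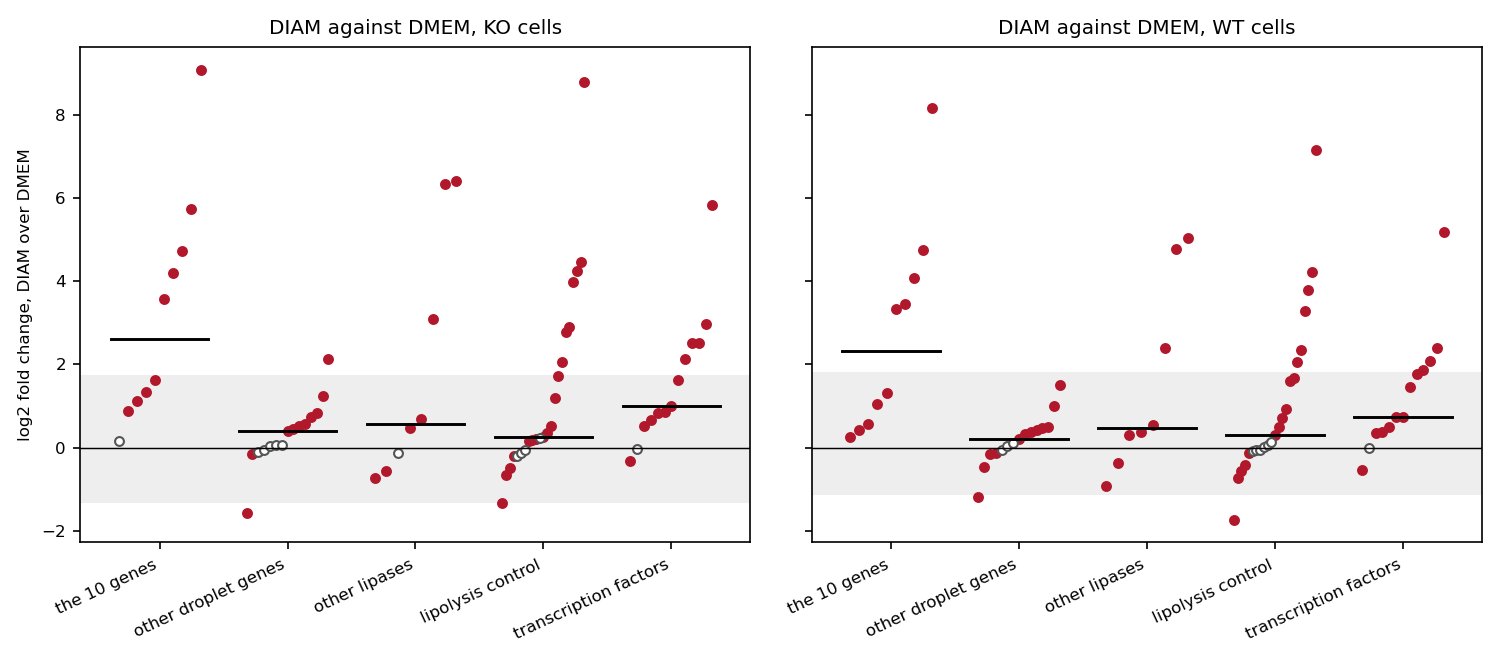
Log2 fold change, DIAM over DMEM, of the 10 genes and of the 4 other lists, in KO cells and in WT cells. Each point is a gene past the filter, filled where the adjusted p was under 0.05, the line is the list's median, and the grey band spans the 5th to 95th percentiles of all tested genes. The medians of the 10 genes, 2.60 in KO cells and 2.32 in WT cells, are above those of the other lists, which lie between 0.20 and 1.01.

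The genes whose pattern over the 16 libraries was most like that of each member were found by the mean absolute difference of row-centred log2 CPM. For Plin1 they were Adipoq, the fat cell hormone adiponectin, at 0.17, and Adig, at 0.20. For Pnpla2 they were Pcx, pyruvate carboxylase, at 0.08, and Scd1, a fatty acid desaturase, at 0.11, and for Lipe Dgat2, which makes triglyceride, was at 0.13. For Cidec, Thrsp at 0.38 and Car3 at 0.42 were nearest, the largest distances of the 10. The distance grows with how much a gene varies, and the median over named genes was 4.31 for Cidec. Plin4 was nearest to Tgfa at 0.17 and Selenbp1 at 0.18. G0s2 was nearest to Me1, malic enzyme, at 0.10 and Glt8d2 at 0.12, Abhd5 to Cav2 at 0.07 and Ak3 at 0.08, and Plin2 to Ech1 at 0.08 and Hmox1 at 0.09. Plin3, which hardly varied, was nearest to Ntan1 at 0.06 and Rpl31 at 0.07, and Mgll to Frmd3 at 0.12 and Cpeb2 at 0.13. The medians over named genes were only 0.23 for Plin3 and 0.44 for Mgll. Among the members themselves, Pnpla2 and Lipe were each other's nearest at 0.29, Plin2 and Abhd5 at 0.21, and Mgll and G0s2 at 0.21.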

How the data were processed

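Total RNA was sequenced from 16 libraries of cultured mouse aortic smooth muscle cells, 4 per group, grouped by the genotype and medium in the labels. Per the labels' protocols, an unstranded TruSeq kit with depletion of ribosomal RNA was used. The design text speaks of 4 biological replicates and the library protocol of triplicates, and nothing says that libraries with a number shared a mouse, so p-values measure the spread between these libraries. All libraries carry the same batch label.

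Per the submitters' processing notes, the authors' tools include Salmon 1.9.0, DESeq2 1.46.0, R 4.4.2 and FastQC, and the build is GRCm39. The deposited library columns are called TPM in the labels, but they sum to 37221192 to 47626331 and differ between libraries, so they were treated as estimated counts (expected counts). The authors' deposited log2 fold changes, mean count signal and adjusted p-values, given for 4 comparisons, were used only where named.

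The counts were rounded. Genes with at least 1 CPM in at least 4 libraries were tested by edgeR 4.0.16 in R 4.3.3 (two-sided quasi-likelihood test, TMM scaling, robust estimates, 1 model of the 4 groups, 12 residual degrees of freedom), after a test on simulated data. The SE was taken as |log2 fold change| / √F. Alternatives were median-ratio scaling, no scaling, no filter, a 5 CPM filter, DESeq2 1.42.0, limma 3.58.1 on log2(CPM + 1) and log2(CPM + 0.1), no robust estimates, a replicate block, fits of the 2 groups compared, and leaving out each library. Promoter windows are RefSeq's for GRCm38.p6, and lengths and overlaps are from GENCODE vM21.

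The 10 genes and all lists were chosen with earlier results of these data known. Named beside the 10 genes were the 4 called genes of smallest p between the media in each list, any called between genotypes or in the interaction, the 2 genes most like each member and the leading markers. Some genes that this rule takes are not reported here. Genes without a line in the files at hand were not analysed here. Every gene with a line was above 0 in at least 9 of the 16 libraries. A gene found in the DIAM libraries alone is therefore not among them. Cidec, Pnpla3, Ces1d, Adora1, Mlxipl, Thrsp and Car3 averaged under 1 CPM in both groups in DMEM. They passed the filter only with their DIAM libraries.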

Additional observations from a re-analysis of the deposited data

Results flagged for a closer look

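Within 40 groups of 4 libraries, 1 for each of the 10 genes in each group, 3 held a library far from the other 3, as judged by the gap to the nearest library over the group's range (Dixon's test). Chance gives about 1 in 20. For Lipe in KO cells in DIAM, library 3 (141 CPM) lay below 189 to 194 CPM, with a gap of 0.901 of the range. For Mgll in WT cells in DIAM, library 2 (22.9 CPM) lay below 35.4 to 37.8 CPM, with a gap of 0.838. For Cidec in WT cells in DMEM, library 2 (0.413 CPM) lay below 0.532 to 0.55 CPM, with a gap of 0.87, at 16 counts against 22 to 26.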

How the results depend on the processing

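Without 1 library, DIAM against DMEM called 9 of the 10 genes in KO cells and 8 to 10 in WT cells. The calls that were lost in WT cells were those of Plin3 and Mgll (without scaling, adjusted p = 0.0835 and 0.0607). KO against WT cells in DIAM depended on the processing: 5 members were called, 0 to 5 without 1 library, 3 with no filter and 0 with the 2 groups alone. Over all genes the 1191 calls became 178 to 1480 without 1 library, 1873 by DESeq2, 1810 in the authors' deposited table and 0 with the 2 groups alone. Limma on log2(CPM + 1) also called Cidec (adjusted p = 0.0439). The authors' deposited table called Plin4 (0.00362) and not Lipe (0.0741). For the interaction, DESeq2 and the authors' deposited table called 2 members each and 225 and 234 genes, against 0 by edgeR. For KO against WT cells in DMEM they called 1 and 2 genes.

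Signs turned only for differences that passed no test. In DMEM, Plin3 (-0.00212) was 0.0225 without scaling, 0.00947 with a 5 CPM filter, 0.001 and 0.00104 by limma, 0.00518 with the replicate block and 0.00375 with the 2 groups alone, and Abhd5 (-0.0166) was 0.0083 without scaling. Without 1 library, log2 fold changes in DMEM ranged from -0.417 to 0.00447 for Plin1, -0.0446 to 0.0537 for Plin3, -0.143 to 0.148 for Plin4, -0.596 to 0.108 for Cidec, -0.027 to 0.133 for Lipe, -0.247 to 0.0527 for Mgll and -0.053 to 0.018 for Abhd5. Plin3 ranged from -0.156 to 0.0266 in DIAM and from -0.154 to 0.0242 in the interaction. Libraries with the same number did not all deviate together (correlations of -0.201 to 0.29). With that number as a replicate block, 5 members were still called between genotypes in DIAM. Depth limits Cidec in DMEM, at 5 to 32 counts.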
